A study of Mus musculus with 8 samples.

Results

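The genes described here are the ligands and receptors of axon guidance in mouse pancreatic ductal adenocarcinoma (PDAC) cells. They were chosen by a rule on gene names, set with earlier results of these data known. The rule took every gene of the deposited count table whose symbol belongs to the semaphorin, plexin, ephrin, Eph, Slit, Robo, netrin or Unc5 families. It gave 68 of the 53465 genes in the table. They are 20 semaphorins, 9 plexins with 3 RNAs antisense to *Plxna4*, 8 ephrins, 14 Eph receptors, 3 Slits, 4 Robo receptors, 3 netrins and 4 Unc5 receptors. A gene was taken as detected with at least 10 counts in at least 2 libraries, which 49 members met, and 47 also passed the filter on low counts used for testing.

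RNA-seq was done on 8 libraries from 2 cell lines, B73 and B87, each grown from the primary tumor of a mouse in which *Smad4* can be silenced reversibly. All 4 groups therefore share the same alleles, among them a Cre recombinase driven by *Ptf1a*, which is active in the embryonic pancreas, a Cre-activated rtTA3-IRES-mKate2 cassette at *Rosa26*, and a miR30-based short hairpin RNA (shRNA) against *Smad4* in the *Col1a1* locus. Doxycycline (Dox) switches the shRNA on. Culture with Dox thus gave Smad4-off cells, and 5 days after its withdrawal the cells were Smad4 on. Both states were treated for 24 h with 100 pM TGFβ1 or with 2.5 µM SB505124, which blocks the kinase of the type I TGFβ receptor. Each group holds 1 library per line, so n = 2 throughout, and the lines are the replicates. The effect of *Smad4* and that of the absence of Dox cannot be told apart in this design. No group was left untreated, so every change with TGFβ1 below is relative to SB505124. The effect of TGFβ1 and that of SB505124 cannot be told apart either. The lines were passaged repeatedly before use to remove cells other than tumor cells. In each series of 4 values below, the order is Smad4 off and then Smad4 on under SB505124, followed by Smad4 off and then Smad4 on under TGFβ1.

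Library totals ran from 18389235 to 23440550 counts, so that 3 counts, the lowest level treated as measurable, corresponded to 0.125 to 0.162 CPM (TMM-normalized counts, expressed relative to the same total in each library). This floor covers counting error only. *Smad4* itself measured 33.7, 97.4, 34.7 and 117 CPM in B73 and 34.9, 114, 35.5 and 115 CPM in B87, higher in every Smad4-on library. The TGFβ target genes *Smad7* and *Skil* were called higher with TGFβ1 in both states, with log2 fold changes of 2.48 and 2.51 in Smad4-on cells and 1.93 and 1.73 in Smad4-off cells. Of 7 ductal epithelial markers, *Krt8*, *Krt18*, *Krt19*, *Krt7*, *Cdh1* and *Sox9* were present, whereas *Epcam* stayed at 0.153 to 2.11 CPM. The summed level of the 7 was 3940 to 6210 CPM in B73 and 1220 to 2110 CPM in B87. Defining markers of other cells were at or near 0 in every library: *Lum*, *Cd3e*, *Cpa1* and *Prss1* had 0 counts, *Sox10* at most 1, *Dcn* and *Ptprc* at most 3, and *Pecam1* at most 5.

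Axon guidance ligands steer growing axons by attracting or repelling them. Semaphorins act mainly through plexins, with neuropilins as co-receptors for most secreted class 3 members. Ephrins are held on the cell surface and signal with Eph receptor tyrosine kinases at cell contacts, in both directions. Slits bind Robo receptors, and netrins bind Dcc and Unc5 receptors. The same families act outside the nervous system on cell adhesion, migration and vessel growth, and axon guidance genes are among the pathways known to be altered in pancreatic cancer.

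Promoter sequences are printed for *Sema4f*, *Unc5b* and *Sema4a*, which were called with TGFβ1 in both Smad4 states, *Sema4f* and *Unc5b* higher and *Sema4a* lower. Each run is the 250 bases before the RefSeq start (GRCm38.p6), 5′ to 3′ on the strand of the gene, with no annotated exon inside it. Capitals mark CAGAC or its reverse complement GTCTG, the short SMAD binding element. The *Sema4f* window lies at chr6:82939770-82940019, the *Unc5b* window at chr10:60831582-60831831 and the *Sema4a* window at chr3:88461183-88461432, all on the minus strand.
Sema4f: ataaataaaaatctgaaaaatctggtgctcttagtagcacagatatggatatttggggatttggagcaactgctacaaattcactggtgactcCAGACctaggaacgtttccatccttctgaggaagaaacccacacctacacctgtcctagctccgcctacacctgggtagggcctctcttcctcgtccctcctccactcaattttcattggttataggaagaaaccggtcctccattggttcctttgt
Unc5b: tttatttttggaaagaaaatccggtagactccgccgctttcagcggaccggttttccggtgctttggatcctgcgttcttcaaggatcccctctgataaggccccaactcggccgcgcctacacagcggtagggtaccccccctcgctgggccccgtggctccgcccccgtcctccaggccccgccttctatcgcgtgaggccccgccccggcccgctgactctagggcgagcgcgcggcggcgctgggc
Sema4a: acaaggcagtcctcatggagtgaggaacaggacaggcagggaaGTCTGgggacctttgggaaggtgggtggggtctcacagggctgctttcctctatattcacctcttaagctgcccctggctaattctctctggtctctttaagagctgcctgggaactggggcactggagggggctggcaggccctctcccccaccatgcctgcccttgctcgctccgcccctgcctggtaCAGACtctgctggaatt

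The element was found once before *Sema4f*, its first base 157 bases before the start. It was found at 207 and 17 bases before the start of *Sema4a*, and not before *Unc5b*. Such a short motif is common: 42.2% of all 32851 RefSeq promoter windows of this length hold it on either strand, against 47.6% of the 42 detected members with an entry. The palindrome GTCTAGAC was in 0.167% of all windows and in 0 of the 42, and the AP-1 site TGANTCA in 6.75% of all windows and in 1 of the 42, *Sema4c*. The GC-rich SMAD site GGCGC or GCGCC was in 32.0% of all windows and 69.0% of the 42, whose windows were also richer in G and C (median 65.4% against 52.4%). These matches describe the letters of the windows only.

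The detected members spanned several orders of magnitude in level per kilobase of exon (CPM per kb), the scale on which genes can be compared with each other. *Epha2*, an ephrin-A receptor, was the most abundant at a mean of 141 CPM per kb over the 8 libraries (range 83.7 to 222). It was followed by the plexin *Plxnb2* at 104 (79.5 to 129), the netrin receptor *Unc5b* at 93.5 (48.1 to 164), the secreted semaphorin *Sema3c* at 62.3 (33.4 to 107) and *Plxna1* at 36.8 (28.0 to 51.0). The ranges of the first 3 overlapped, so their order varied with the library. Without scaling by length the same 5 genes led, with *Plxnb2* first.

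Within each family a few genes carried most of the level per kilobase. After *Sema3c*, the highest semaphorins were *Sema3f* (mean 14) and *Sema4b* (12.1), whose ranges overlapped. After *Plxnb2* and *Plxna1*, the highest plexin was *Plxna2* (8.58). Among ephrins *Efnb2* led (22.1, range 19.6 to 25.4), ahead of *Efnb1* (9.96) and *Efna1* (6.93). Among Eph receptors *Epha4* (15.5) and *Ephb4* (14.5) followed *Epha2* at a distance and overlapped each other. The Slit and Robo genes were low, with *Robo1* at 3.64, *Slit2* at 2.04 and *Robo2* at 0.0211, and the netrins *Ntn4* and *Ntn1* averaged 5.80 and 1.34.

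**Figure D1:**
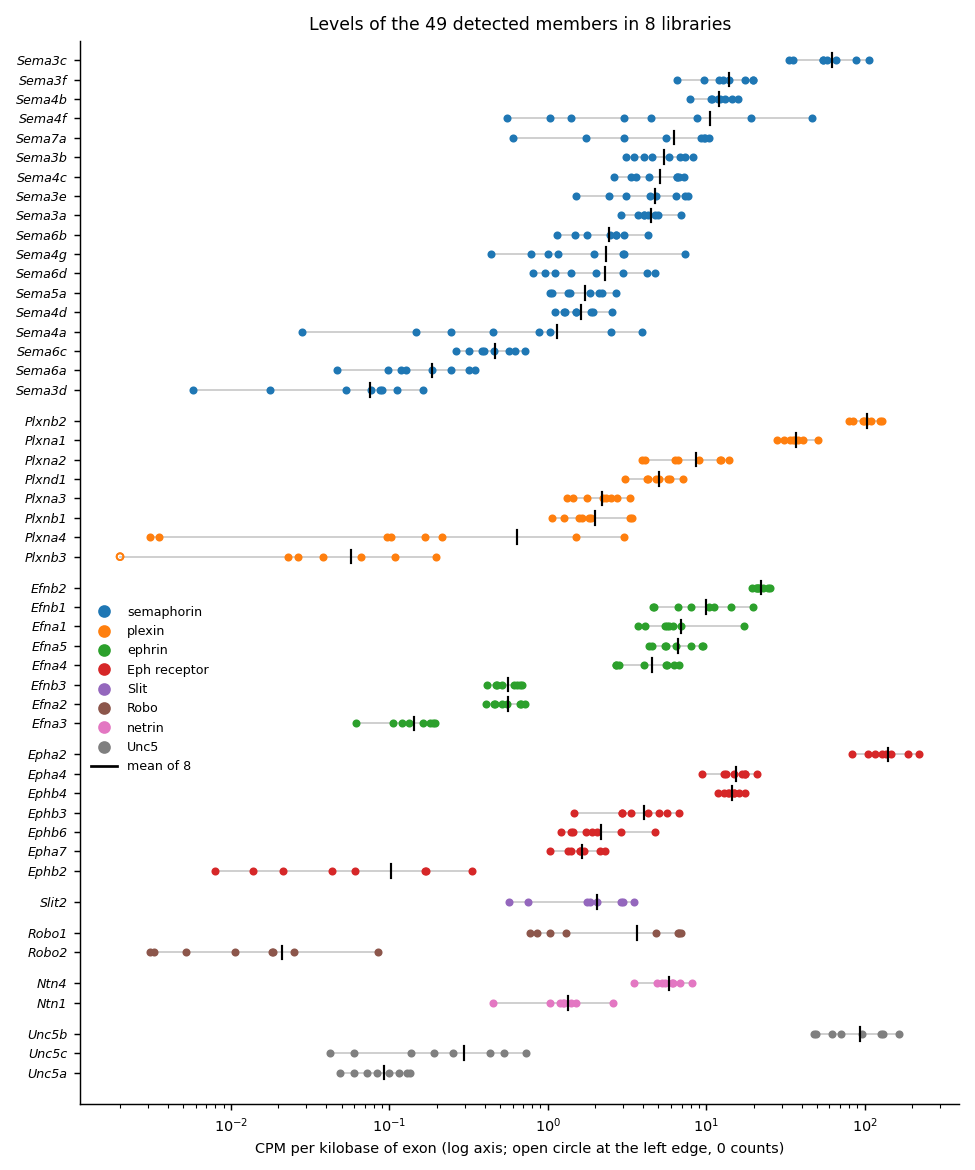
Level of each of the 49 detected members in CPM per kilobase of exon on a log axis; each colored point is 1 of 8 libraries, the grey line spans their range and the black tick is their mean. *Epha2*, *Plxnb2* and *Unc5b* sat at means of 141, 104 and 93.5, while *Plxna4* ran from 0.00311 to 3.05 and *Sema4f* from 0.556 to 46.7.

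The remaining 19 members were not detected. The Eph receptors *Epha3*, *Epha5*, *Epha6*, *Epha8*, *Epha10* and *Ephb1* had at most 2 counts in any library, and *Epha1* had 2 to 22. *Slit1* had 1 to 8 counts, *Slit3* at most 2, *Robo3* 1 to 12 and *Robo4* at most 1. *Sema3g* had 1 to 6 counts, *Sema5b* 0, *Ntn5* at most 7, *Unc5d* at most 2 and *Plxnc1*, the plexin known to bind Sema7a, at most 4. The *Plxna4* antisense RNAs had 0 counts (*Plxna4os1* and *Plxna4os3*) or at most 2 (*Plxna4os2*). At this depth these genes were not detectable as defined here, which does not show that they are absent. *Efna3* (3 to 11 counts) and *Robo2* (1 to 28 counts, the highest in the B73 Smad4-off SB505124 library) were detected but not tested.

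The first comparison asked how these genes respond to TGFβ1 against receptor inhibition. Calls required a change of over 2-fold and an edgeR p that stayed under 0.05 after Benjamini-Hochberg adjustment over all 14301 tested genes. In Smad4-on cells 19 of 47 tested members were called (40.4%), 7 higher and 12 lower, against 13.9% of all tested genes. The median of the absolute log2 fold change was 0.88 among the members and 0.34 among all tested genes. In Smad4-off cells 5 of 47 were called (10.6%), 4 higher and 1 lower, against 5.93% of all tested genes. A member counted here had to pass a filter on low counts, which genes high in a single group can pass. Restricted to genes with at least 10 counts in every library, 15 of 40 members were called in Smad4-on cells (37.5%, against 10.9% of 11848 genes) and 3 of 40 in Smad4-off cells (7.5%, against 4.38%).

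The number of calls fell when the cell line was not a term in the model. Without the line, edgeR called 9 members in Smad4-on cells and 2 in Smad4-off cells, and DESeq2 called 16 and 4. The shares of all tested genes called by these fits are not given here. Whether members lost calls more often than other genes is therefore not shown. Markers moved with TGFβ1 too. *Krt19* was called lower with TGFβ1 in both states and *Cdh1* in Smad4-on cells, that is 2 and 1 of the 7 ductal markers, whose sum was 1220 to 5790 CPM with TGFβ1 and 1690 to 6210 CPM with SB505124. *Col1a1*, 1 of 4 fibroblast markers, was called higher in both states, with a list sum of 2.96 to 631 CPM under TGFβ1 and 1.24 to 125 CPM under SB505124, while *Lum* stayed at 0 and *Dcn* at 3 counts or fewer. *Tubb3*, 1 of 5 Schwann and neural markers, was called higher in Smad4-on cells (list sum 5.68 to 20.3 against 2.16 to 3.73 CPM). Of 3 endothelial markers, *Cdh5* was called higher in both states and *Kdr* in Smad4-off cells (3.32 to 26.0 against 0.648 to 5.14 CPM). The part of these shifts in the results was not tested. In bulk RNA a smaller share of cells of a type and less RNA per cell cannot be told apart.

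**Figure D2:**
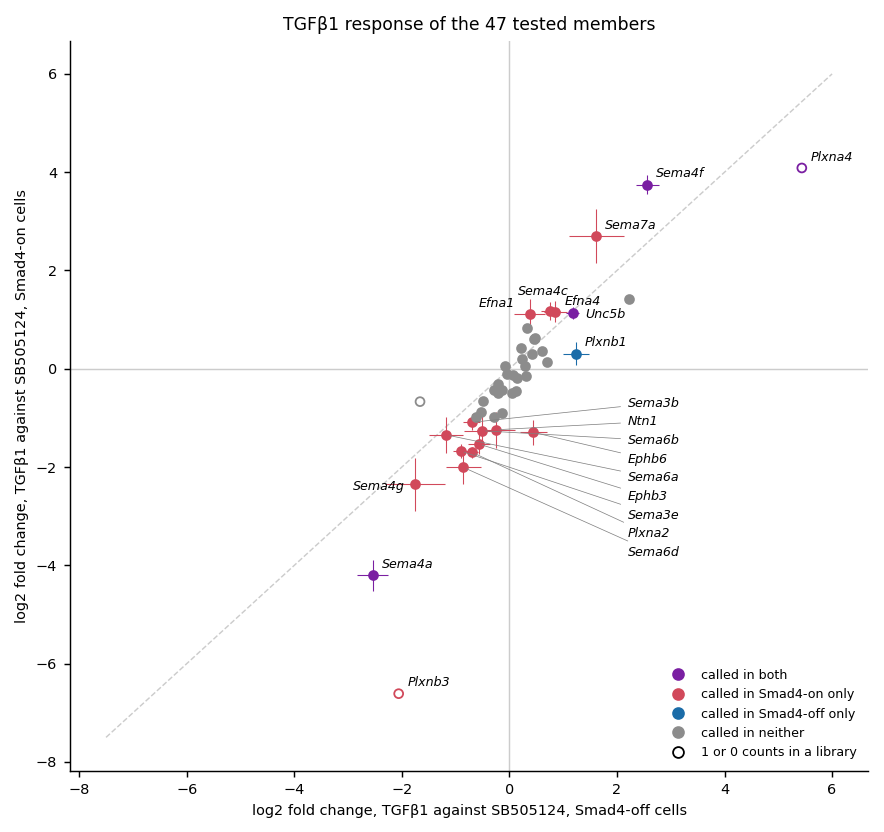
Log2 fold change between TGFβ1 and SB505124 of the 47 tested members, in Smad4-off cells (x axis) and in Smad4-on cells (y axis), with standard errors for called members; open circles have 1 or 0 counts in a library, and the dashed line marks equal change. *Sema4f* (2.56 and 3.75), *Unc5b* (1.18 and 1.14) and *Sema4a* (-2.54 and -4.21) were called in both states, as was *Plxna4*.

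Semaphorins, the largest family with 18 of the 47 tested members, held more of the called members in Smad4-on cells than any other. With TGFβ1, 3 of the 18 were called higher and 7 lower, against 5.62% and 8.31% of all tested genes. Their median log2 fold change was -0.82, against -0.02 over all tested genes. Among the secreted class 3 members, *Sema3e*, a ligand that binds *Plxnd1* directly, measured 68.8, 71.5, 40.9 and 22.7 CPM in B73 and 59.6, 45.1, 28.8 and 13.9 CPM in B87. Both lines were lowest in Smad4-on cells with TGFβ1, and TGFβ1 and SB505124 libraries did not overlap. It fell by 1.67 ± 0.140 (SE) on the log2 scale in Smad4-on cells (adjusted p = 0.000313) and kept its call in all 16 alternatives tried. In Smad4-off cells its log2 difference of -0.91 ± 0.135 (adjusted p = 0.00749) was within 2-fold. *Sema3b* fell by 1.09 ± 0.163 in Smad4-on cells (adjusted p = 0.00298), but by less than 2-fold without the B73 Smad4-on TGFβ1 library (log2 fold change -0.88, adjusted p = 0.0176).

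*Sema3c*, the most abundant semaphorin, measured 390, 472, 254 and 239 CPM in B73 and 634, 764, 413 and 392 CPM in B87. Every TGFβ1 library lay below both SB505124 libraries of its line. The difference of -0.97 ± 0.0740 (log2, adjusted p = 0.000239) in Smad4-on cells stayed just inside 2-fold, as did that of -0.62 ± 0.0736 in Smad4-off cells (adjusted p = 0.00353). *Sema3a*, *Sema3d* and *Sema3f* were not called in either state.

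Class 4 semaphorins, which span the membrane, moved in both directions. *Sema4f* (chr6:82911885-82939769, minus strand) measured 7.39, 23.7, 46.1 and 247 CPM in B73 and 2.94, 5.45, 16.1 and 102 CPM in B87. In each line the level was lowest with *Smad4* off under SB505124 and highest with *Smad4* on under TGFβ1, with the other two groups in the same order between. With TGFβ1 it rose by 3.75 ± 0.199 on the log2 scale in Smad4-on cells (13.4-fold, adjusted p = 8.71e-05) and by 2.56 ± 0.212 in Smad4-off cells (5.92-fold, adjusted p = 0.00105). Without the line in the model, edgeR gave adjusted p = 0.0572 and 0.242 for these changes, and DESeq2 0.00313 and 0.0922.

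*Sema4a* (chr3:88435959-88461182, minus strand), its printed promoter window just upstream, moved the other way: 13.5, 21.2, 2.44 and 1.33 CPM in B73, and 4.74, 5.57, 0.797 and 0.153 CPM in B87. The last value rests on 3 counts, against 134 in the matching SB505124 library, a ratio of 36.5 with a 95% exact counting interval of 12.2 to 179. *Sema4a* fell by 4.21 ± 0.324 in Smad4-on cells (adjusted p = 0.000249) and by 2.54 ± 0.291 in Smad4-off cells (adjusted p = 0.00304) on the log2 scale. Without the line, edgeR gave adjusted p = 0.0761 and 0.337, and DESeq2 0.000844 and 0.132.

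*Sema4g* measured 14.7, 35.9, 2.14 and 3.83 CPM in B73 and 9.62, 14.6, 4.93 and 5.71 CPM in B87, lower with TGFβ1 in both lines but more so in B73. Its fall of 2.35 ± 0.546 in Smad4-on cells (log2, adjusted p = 0.0167) was lost without either B73 Smad4-on library (adjusted p = 0.0875 without the SB505124 library and 0.108 without the TGFβ1 library). *Sema4c*, a ligand of *Plxnb2*, rose by 1.17 ± 0.188 in Smad4-on cells (log2, adjusted p = 0.00394), and by 0.94 without the B73 Smad4-on SB505124 library. About 7.27% of its exon bases overlap a gene on the opposite strand. *Sema4b* differed by -0.43 ± 0.109 (log2, adjusted p = 0.0239), within 2-fold, and *Sema4d*, a ligand of *Plxnb1*, was not called.

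Of the 4 class 6 genes, which also span the membrane, 3 were called lower with TGFβ1 in Smad4-on cells, against 8.31% of all tested genes. *Sema6d* measured 50.3, 44.7, 21.5 and 10.2 CPM in B73 and 14.8, 31.5, 11.9 and 8.57 CPM in B87, and fell by 2.01 ± 0.335 (log2, adjusted p = 0.00463). When the line was left out, edgeR gave adjusted p = 0.0755, and DESeq2 kept the call (0.00296). *Sema6b* and *Sema6a* fell by 1.26 ± 0.337 (adjusted p = 0.0279) and 1.35 ± 0.363 (adjusted p = 0.0290). Both are less secure. The *Sema6b* call was lost without the B73 SB505124, the B73 TGFβ1 or the B87 TGFβ1 library of the Smad4-on group (adjusted p = 0.176, 0.0554 and 0.141). *Sema6a*, at only 8 to 64 counts, lost its call without any of the 4 Smad4-on libraries or of both Smad4-off TGFβ1 libraries (adjusted p = 0.0529 to 0.166) and without the line (0.134 by edgeR, 0.190 by DESeq2). DESeq2 with the line did not call *Sema6a* either. *Sema6c* was not called.

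*Sema7a*, a ligand anchored to the membrane by a lipid that is known to act through β1 integrins as well as *Plxnc1*, measured 18.4, 10.0, 34.7 and 32.1 CPM in B73 and 5.75, 2.0, 30.5 and 32.4 CPM in B87. The TGFβ1 values of the lines were alike, while the SB505124 values were lower in B87. It rose by 2.69 ± 0.551 in Smad4-on cells (log2, adjusted p = 0.0106), by 1.67 in B73 and by 3.96 in B87. The call was lost without the B87 Smad4-on SB505124 library (adjusted p = 0.0533). In fits with no line term, edgeR gave adjusted p = 0.102, and DESeq2 kept the call (0.00567). In Smad4-off cells the log2 difference was 1.62 ± 0.514 (adjusted p = 0.0873).

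**Figure D3:**
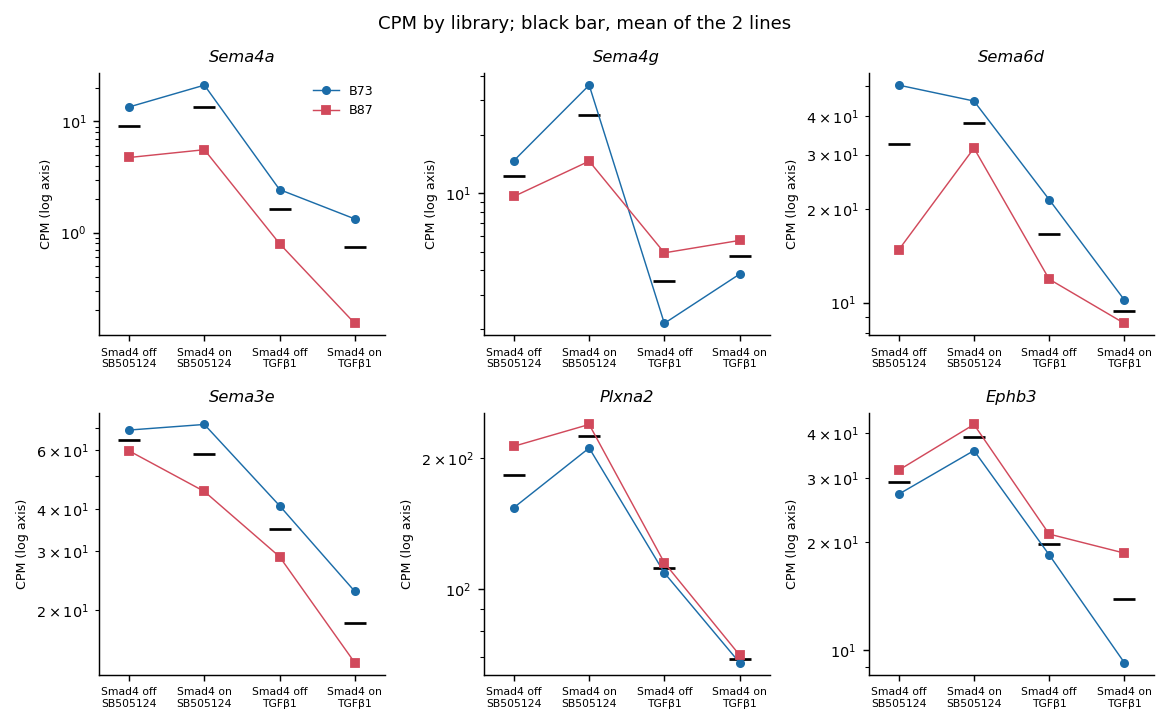
CPM (log axis) in each library of 6 members called lower with TGFβ1 in Smad4-on cells; circles are B73, squares B87, lines join libraries of a line and black bars are means of the 2 lines. *Plxna2* reached 67.8 and 70.6 CPM in the Smad4-on TGFβ1 libraries, the lowest of its 4 groups in both lines.

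Plexins, the semaphorin receptors, had 1 member called higher and 2 lower of 8 tested in Smad4-on cells, against 5.62% and 8.31% of all tested genes. In Smad4-off cells 2 of the 8 were called higher, against 3.11% of all tested genes. *Plxna4* (chr6:32144268-32588192, minus strand), a receptor for class 3 and class 6 semaphorins, measured 0.0499, 2.38, 1.46 and 43.1 CPM in B73 and 0.0439, 1.37, 3.04 and 21.3 CPM in B87. The first value of each line is 1 count. In both lines the gene was at the counting floor only with *Smad4* off under SB505124, and was highest in Smad4-on cells with TGFβ1. In Smad4-on cells it rose with TGFβ1 by 4.09 ± 0.459 on the log2 scale (17.0-fold, adjusted p = 0.000965), a call kept in all 15 alternatives that gave a value. In Smad4-off cells the 2 libraries of each treatment summed to 95 and 2 counts, a ratio of 46.8 (95% exact counting interval 12.6 to 392). That change was called (adjusted p = 0.0123) and lost its call without the SB505124 library of B73 or of B87 (adjusted p = 0.0657 and 0.0736).

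*Plxna2* (chr1:194618218-194816869, plus strand) measured 154, 211, 109 and 67.8 CPM in B73 and 213, 239, 115 and 70.6 CPM in B87. It fell by 1.70 ± 0.116 on the log2 scale in Smad4-on cells (3.24-fold, adjusted p = 0.000168), a call kept in all 16 alternatives. In Smad4-off cells the difference of -0.70 ± 0.113 (log2, adjusted p = 0.0101) was within 2-fold. *Plxnb1*, the receptor of *Sema4d*, measured 15.2, 10.2, 31.9 and 15.9 CPM in B73 and 12.2, 17.4, 32.9 and 18.1 CPM in B87, highest in both lines in Smad4-off cells with TGFβ1. It rose by 1.24 ± 0.234 in Smad4-off cells (log2, adjusted p = 0.0177), a call lost without the B87 SB505124, the B73 TGFβ1 or the B87 TGFβ1 library of that group (adjusted p = 0.0918, 0.111 and 0.0813). With the line left out, edgeR gave adjusted p = 0.0934, and DESeq2 kept the call (0.00122).

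*Plxnb3* was at the edge of detection. It had 0 counts in both Smad4-on TGFβ1 libraries, against a mean of 0.570 CPM in the SB505124 libraries, and so was at least 3.72-fold lower, taking 3 counts per library as the floor. This call (adjusted p = 0.0171) was lost without either SB505124 library of that state or the B87 TGFβ1 library (adjusted p = 0.0585, 0.0591 and 0.106). With no line term, edgeR gave adjusted p = 0.0523, and DESeq2 kept the call (0.0195). The abundant *Plxnb2* (706, 890, 566 and 606 CPM in B73, 783, 920, 732 and 692 CPM in B87) differed by -0.48 ± 0.0981 in Smad4-on cells (log2, adjusted p = 0.0102), and *Plxna3* by -0.88 ± 0.192 (adjusted p = 0.0132), both within 2-fold. *Plxna1* and *Plxnd1* were not called in any comparison.

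Ephrins were called only higher, 2 of 7 tested, in Smad4-on cells with TGFβ1. *Efna1*, a ligand of *Epha2*, measured 11.3, 10.4, 12.7 and 31.9 CPM in B73 and 6.85, 7.57, 10.1 and 10.7 CPM in B87. The Smad4-on TGFβ1 library of B73 alone stood well above the rest. The rise of 1.12 ± 0.295 (log2, adjusted p = 0.0265) became 0.52 without that library (adjusted p = 0.143), and its call was also lost without either Smad4-on SB505124 library (adjusted p = 0.162 for B73, 0.0630 for B87) and without the line (0.173 by edgeR, 0.087 by DESeq2). *Efna4* measured 6.49, 4.32, 10.8 and 9.08 CPM in B73 and 4.48, 4.28, 8.92 and 10.1 CPM in B87, higher with TGFβ1 in both lines. It rose by 1.16 ± 0.214 in Smad4-on cells (log2, adjusted p = 0.00703). The call was lost without the B73 SB505124 library (adjusted p = 0.0502) and, by the 2-fold rule, without the B87 TGFβ1 library of that state (log2 fold change 0.93). In Smad4-off cells it differed by 0.85 ± 0.209 (log2, adjusted p = 0.0409). About 10.5% of the annotated exon bases of *Efna4* overlap another gene on the opposite strand, and the strand setting of the counting was not stated. *Efnb1* and *Efna5* differed within 2-fold in Smad4-on cells, by 0.83 ± 0.179 and -0.43 ± 0.123 (log2, adjusted p = 0.0127 and 0.0354). *Efnb2*, the most abundant ephrin, and *Efna2* and *Efnb3* were not called in any comparison.

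Of the 7 tested Eph receptors, 2 were called lower with TGFβ1 in Smad4-on cells, against 8.31% of all tested genes. The median log2 fold change of the 7 was 0.05. *Ephb3*, a receptor for ephrin-B ligands, measured 27.1, 35.8, 18.4 and 9.24 CPM in B73 and 31.6, 42.3, 21 and 18.6 CPM in B87. It fell by 1.53 ± 0.207 on the log2 scale (2.89-fold, adjusted p = 0.00203), a call kept in all 16 alternatives. *Ephb6*, which lacks kinase activity, measured 5.44, 7.78, 6.60 and 4.59 CPM in B73 and 7.20, 18.0, 10.9 and 5.30 CPM in B87. It fell by 1.29 ± 0.257 (log2, adjusted p = 0.00947), and lost its call without either B87 Smad4-on library (adjusted p = 0.0637 and 0.0693). The edgeR fit without the line gave adjusted p = 0.0957, and DESeq2 kept the call (0.0346).

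*Epha2* (chr4:141301240-141329384, plus strand) measured 391, 640, 542 and 881 CPM in B73 and 492, 599, 684 and 1040 CPM in B87. Each line was lowest with *Smad4* off under SB505124 and highest with *Smad4* on under TGFβ1. Its differences all stayed within 2-fold: 0.62 ± 0.121 (log2, adjusted p = 0.00892) and 0.47 ± 0.121 (adjusted p = 0.0463) for TGFβ1 in Smad4-on and Smad4-off cells, and 0.65 ± 0.121 (adjusted p = 0.0269) for *Smad4* under TGFβ1. In Smad4-on cells *Epha4* differed by 0.60 ± 0.162 (adjusted p = 0.0295) and *Epha7* by -0.90 ± 0.159 (adjusted p = 0.00586) with TGFβ1. *Ephb2* was at 0.0998, 0.270, 0.771 and 4.18 CPM in B73 and 0.176, 2.12, 0.548 and 2.14 CPM in B87, highest in B73 in Smad4-on cells with TGFβ1 and about level in both Smad4-on libraries of B87, and was not called by the edgeR fit in any comparison. With no filter on low counts it was called for *Smad4* under TGFβ1 and SB505124 (2.25 and 3.07 on the log2 scale, adjusted p = 0.00439 and 0.0109), for TGFβ1 in Smad4-on cells (1.42, 0.044) and for the interaction of line and TGFβ1 (-3.25, 0.00993). It was also called from only the 4 libraries compared for *Smad4* under TGFβ1 (2.23, adjusted p = 0.0171) and for TGFβ1 in Smad4-off cells (2.2, 0.047). Without the Smad4-on SB505124 library of B73 or B87 it was called for *Smad4* under TGFβ1 (adjusted p = 0.0259 and 0.0267), and without that of B87 for TGFβ1 in Smad4-on cells (3.77, 0.00975). *Ephb4* was not called either.

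Among Unc5 receptors, *Unc5b* (chr10:60762593-60831581, minus strand), a netrin receptor that can signal cell death in the absence of its ligand, measured 308, 391, 600 and 817 CPM in B73 and 301, 445, 793 and 1030 CPM in B87. Every TGFβ1 library lay above every SB505124 library. *Unc5b* rose by 1.14 ± 0.118 in Smad4-on cells (log2, adjusted p = 0.000701) and by 1.18 ± 0.118 in Smad4-off cells (adjusted p = 0.00204), and kept both calls in all 16 alternatives of each. The ligand *Ntn1* measured 9.38, 7.83, 6.47 and 2.86 CPM in B73 and 8.0, 16.3, 8.77 and 7.49 CPM in B87. It fell by 1.24 ± 0.364 in Smad4-on cells (log2, adjusted p = 0.0382), a call lost without either Smad4-on SB505124 library, the B73 Smad4-on TGFβ1 library or either Smad4-off TGFβ1 library (adjusted p = 0.0573 to 0.250) and without the line (0.182 by edgeR, 0.120 by DESeq2). *Ntn4*, *Unc5a* (4 to 11 counts) and, for TGFβ1, *Unc5c*, *Robo1* and *Slit2* were not called.

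The second question was what *Smad4* itself changed. With TGFβ1, 4 of 47 members (8.51%) were called, all higher in Smad4-on cells, against 3.12% of all tested genes (1.31% higher and 1.8% lower). The members as a whole did not lean that way: 17 of 47 had a positive log2 fold change, and the median was -0.17. With no filter on low counts, edgeR also called *Sema4a* and *Slit2* lower (-1.22 and -1.09 on the log2 scale, adjusted p = 0.0248 and 0.00542). Under SB505124 2 of 47 were called (4.26%), both higher, against 1.09% (0.636% higher and 0.455% lower). With at least 10 counts in every library these became 3 and 1 of 40 (7.5% and 2.5%, against 2.51% and 0.65%). The calls rest on the pairing of libraries by line: without it edgeR called 0 members in either comparison, and DESeq2 called 1 in each. The shares of all tested genes called without the pairing are not given here. Before adjustment, 22 and 14 of the 47 members had p under 0.05 in the paired edgeR fit, as had 23.7% and 12.6% of all tested genes. These 2 comparisons share libraries with those of TGFβ1, so a level that was extreme in a single group enters more than 1 of them. *Col1a1* was called higher in Smad4-on cells under both treatments (list sum of the fibroblast markers 1.24 to 631 against 1.25 to 165 CPM), and *Kdr* lower under TGFβ1. Their part in the result was not tested.

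*Sema4f* rose with *Smad4* by 2.54 ± 0.186 under TGFβ1 (log2, 5.84-fold, adjusted p = 0.00140) and by 1.36 ± 0.218 under SB505124 (2.57-fold, adjusted p = 0.0366), higher in both lines in each case. The first call held with each library left out. The second was lost without either Smad4-off SB505124 library, the B73 Smad4-on SB505124 library or either Smad4-off TGFβ1 library (adjusted p = 0.0675 to 0.296). Without the line, edgeR gave adjusted p = 0.335 and 0.990, and DESeq2 0.156 and 1.0. Within the lines the change under SB505124 was 1.67 in B73 and 0.87 in B87 on the log2 scale.

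*Plxna4* rose with *Smad4* by 3.77 ± 0.455 under TGFβ1 (log2, 13.6-fold, adjusted p = 0.00659), by 4.80 in B73 and 2.77 in B87. Without the line, edgeR gave adjusted p = 0.0735, and DESeq2 kept the call (6.9e-09). Under SB505124 its counts were 77 in the Smad4-on and 2 in the Smad4-off libraries, a ratio of 38.7 (95% exact counting interval 10.4 to 326), and this difference was not called by the edgeR fit with the line (adjusted p = 0.0611). DESeq2 called it with the line (adjusted p = 0.000236) and without (0.00123), and edgeR called it with no filter on low counts (5.15e-06) and without any of the 4 TGFβ1 libraries (0.00569 to 0.0373).

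*Unc5c* (chr3:141465216-141834924, plus strand), a second netrin receptor at far lower level than *Unc5b*, measured 1.15, 8.32, 0.814 and 4.85 CPM in B73 and 2.64, 10.1, 3.69 and 13.9 CPM in B87. Smad4-on libraries were higher in each line under both treatments. It rose with *Smad4* by 2.11 ± 0.410 under TGFβ1 (log2, adjusted p = 0.0313) and by 2.44 ± 0.421 under SB505124 (adjusted p = 0.0467). The first call was lost without any of the 4 TGFβ1 libraries (adjusted p = 0.0605 to 0.175). The second was lost without either Smad4-off SB505124 library, the B73 Smad4-on SB505124 library or either Smad4-on TGFβ1 library (0.0565 to 0.250). Without the line the values were 0.38 and 0.873 by edgeR and 0.150 and 0.274 by DESeq2.

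*Efnb1* (chrX:99136130-99148991, plus strand), a transmembrane ephrin, measured 16.2, 27.7, 16.0 and 49.4 CPM in B73 and 23.1, 38.6, 35.8 and 68.3 CPM in B87. It rose with *Smad4* by 1.25 ± 0.181 under TGFβ1 (log2, adjusted p = 0.0116). Without the B73 Smad4-off TGFβ1 library the change was 0.94, within 2-fold, and without the B73 Smad4-on TGFβ1 library the adjusted p was 0.0653. Without the line it was 0.319 by edgeR and 0.072 by DESeq2. Past the adjusted p but within 2-fold were *Epha2*, given above, *Plxna2* (-0.69 ± 0.114, adjusted p = 0.0178) and *Sema3e* (-0.94 ± 0.140, adjusted p = 0.0127), both lower in Smad4-on cells under TGFβ1.

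**Figure D4:**
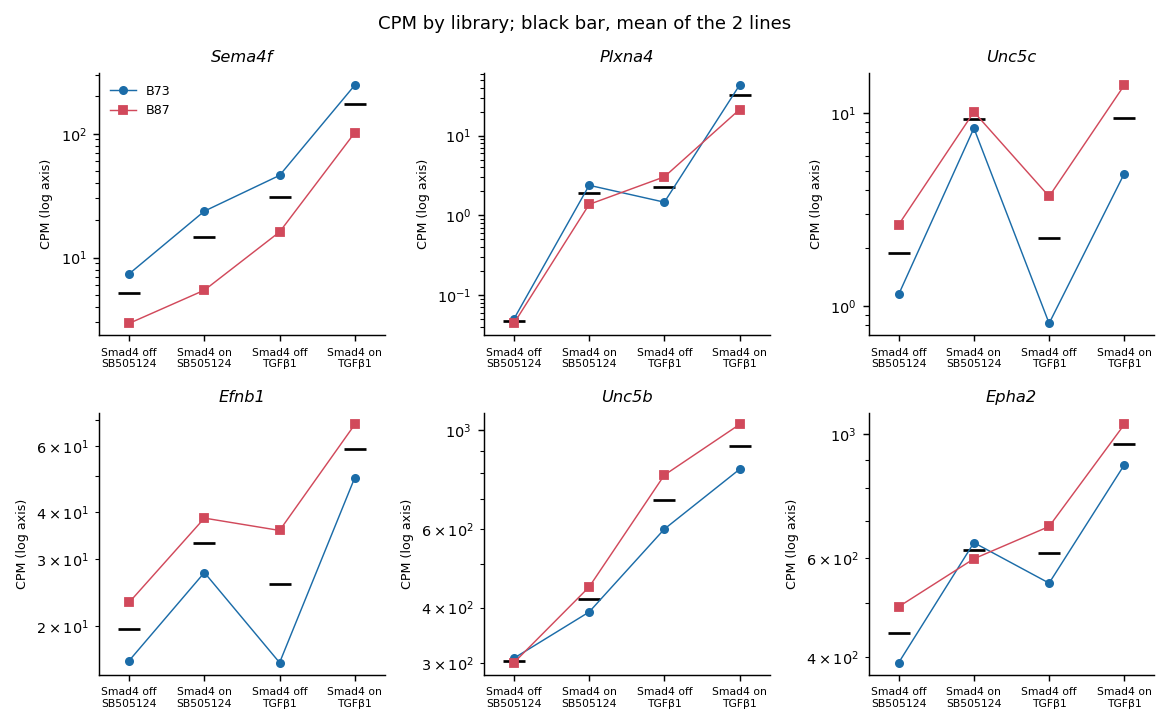
CPM (log axis) in each library of the 4 members called higher with *Smad4* (*Sema4f*, *Plxna4*, *Unc5c*, *Efnb1*) and of the 2 most abundant receptors that were higher with TGFβ1 (*Unc5b*, *Epha2*); circles are B73, squares B87, lines join libraries of a line and black bars are means of the 2 lines. *Sema4f* ran from 2.94 to 247 CPM, and *Unc5c* was higher in Smad4-on libraries of each line whatever the treatment.

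Whether the response to TGFβ1 differed between the Smad4 states was tested as an interaction. The edgeR fit called 0 of 47 members, against 0.189% of all tested genes, with 10 members and 10.4% of all tested genes at an unadjusted p under 0.05. The smallest p was that of *Plxna2*, whose log2 response was lower by 1.00 ± 0.160 in Smad4-on cells (adjusted p = 0.111). DESeq2 with the same terms called 2, *Sema4f* (1.2, adjusted p = 0.0149) and *Ephb6* (-1.73, adjusted p = 0.0149), and edgeR with no filter on low counts called 5, *Sema4f*, *Plxna2*, *Sema6d*, *Sema4a* and *Ephb6* (adjusted p = 0.000259 to 0.0469). The larger number of members called with TGFβ1 when *Smad4* was on is therefore not shown, gene by gene, to be a difference between the states by the edgeR fit with the filter.

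The lines themselves differed at 5 of 47 members (10.6%, against 8.37% of all tested genes), averaged over the 4 groups. *Robo1* (chr16:72663149-73046095, plus strand), the main Slit receptor here, measured 6.44, 5.89, 7.80 and 9.90 CPM in B73 and 36.6, 50.7, 52.7 and 50.4 CPM in B87, with no overlap. It was higher in B87 by 2.67 ± 0.133 (log2, 6.37-fold, adjusted p = 5.47e-05), in all 13 alternatives. Its ligand *Slit2* measured 44.8, 14.5, 51.8 and 19.1 CPM in B73 and 75.5, 89.0, 73.7 and 46.8 CPM in B87. It was higher in B87 by 1.25 ± 0.318 (log2, adjusted p = 0.0358), a call lost without any of the 4 Smad4-on libraries (log2 0.85 without either SB505124 library, adjusted p = 0.0866 and 0.0878 without a TGFβ1 library). In B73 both Smad4-on libraries held less *Slit2* than both Smad4-off libraries, a pattern not shared by B87, and the interaction of line and *Smad4* was not called for it by the edgeR fit (1.32 ± 0.374, adjusted p = 0.272). It was called with no filter on low counts (1.33, adjusted p = 5.58e-12) and without the Smad4-on TGFβ1 library of B73 or of B87 (1.99, adjusted p = 0.0107 and 0.0117).

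*Unc5c* was also higher in B87, by 1.2 ± 0.292 (log2, adjusted p = 0.0308), a call lost without the Smad4-off SB505124, the Smad4-off TGFβ1 or the Smad4-on TGFβ1 library of either line (adjusted p = 0.0678 to 0.105). *Sema4a* and *Sema4f* were lower in B87, by 1.81 ± 0.209 (adjusted p = 0.00160) and 1.55 ± 0.139 (adjusted p = 0.000593) on the log2 scale. Between the lines 4 of 7 ductal markers were called lower and 2 of 4 fibroblast markers higher in B87. *Col1a1* ran from 25.9 to 627 CPM in B87 and from 0.349 to 5.10 CPM in B73, and *Pdgfra* from 3.52 to 6.41 and from 0.648 to 0.898 CPM, whereas *Lum* stayed at 0 and *Dcn* at 3 counts or fewer in both. Their part in the differences was not tested. Each line comes from a separate tumor, and the sample titles do not name the hairpin each carries, so a line difference has no replicate tumors behind it.

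The edgeR fit called a different effect of *Smad4* in the lines for 1 of 47 members, *Sema5a* (2.13%, against 0.392% of all tested genes). At an unadjusted p under 0.05 were 13 members and 9.85% of all tested genes, so the other members are not shown to respond alike. With 1 library per line and group, the treatments serve as the replicates of this test. *Sema5a* (chr15:32244810-32696341, plus strand), a transmembrane semaphorin with thrombospondin repeats, measured 40.9, 39.3, 34.7 and 19.8 CPM in B73 and 25, 50.5, 19.2 and 25.9 CPM in B87. In B87 Smad4-on libraries were higher than their Smad4-off partners under both treatments. In B73 the Smad4-on library was lower under TGFβ1 (19.8 against 34.7 CPM) and nearly level under SB505124 (39.3 against 40.9 CPM). The difference of the responses was 1.16 ± 0.141 (log2, adjusted p = 0.0347). It lost its call without either Smad4-on SB505124 library or the B73 Smad4-off TGFβ1 library (adjusted p = 0.0543, 0.0579 and 0.0654). The response to TGFβ1 differed between the lines for 0 of 47 members by edgeR, as for 0% of all tested genes, with 9 members and 8.38% of all tested genes at an unadjusted p under 0.05, and DESeq2 called *Sema7a* (1.89, adjusted p = 0.000607).

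**Figure D5:**
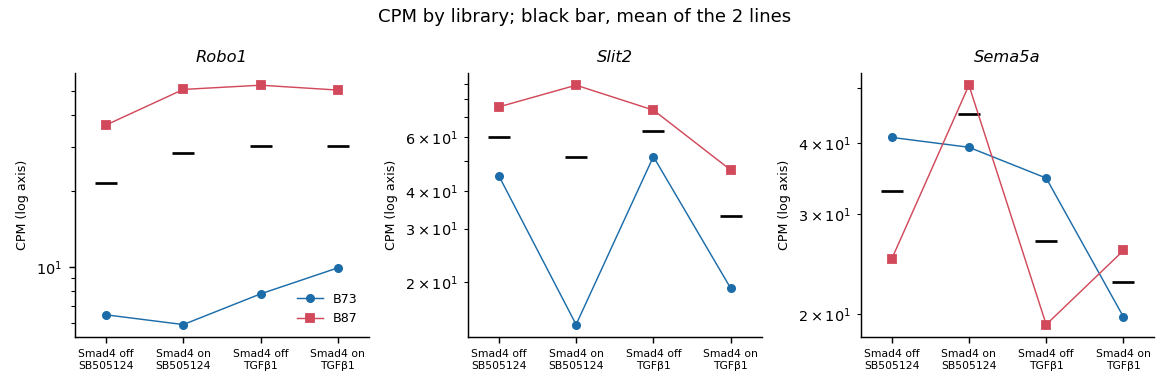
CPM (log axis) in each library of *Robo1*, *Slit2* and *Sema5a*; circles are B73, squares B87, lines join libraries of a line and black bars are means of the 2 lines. *Robo1* was 5.89 to 9.90 CPM in B73 and 36.6 to 52.7 CPM in B87. *Sema5a* was higher with *Smad4* on in B87 under both treatments, and in B73 lower under TGFβ1 and nearly level under SB505124.

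Other genes of the pathway, a list of 65 co-receptors, alternative ligands and signaling proteins, gave 54 tested genes. With TGFβ1 in Smad4-on cells 8 were called higher and 3 lower (20.4%, against 13.9% of all tested genes), and in Smad4-off cells 3 higher and 1 lower (7.41%, against 5.93%). The neuropilins, semaphorin co-receptors that were picked out after their values were seen, were called in opposite directions in Smad4-on cells. *Nrp1* (71.1, 73.6, 70.0 and 28.6 CPM in B73, 101, 141, 132 and 77.9 CPM in B87) fell by 1.08 ± 0.192 (log2, adjusted p = 0.00603), and *Nrp2* (225, 148, 302 and 382 CPM in B73, 265, 202, 345 and 322 CPM in B87) rose by 1.02 ± 0.155 (adjusted p = 0.00318). *Nrp1* lost its call without the line (adjusted p = 0.288 by edgeR, 0.166 by DESeq2) and, by the 2-fold rule, without the B73 Smad4-on TGFβ1 library (-0.78). *Nrp2* was within 2-fold without the SB505124 or the TGFβ1 library of Smad4-on B73 cells (0.84 and 0.74). *Ablim3*, an actin-binding protein, fell with TGFβ1 by 2.91 ± 0.262 when *Smad4* was on and by 1.90 ± 0.248 when it was off (log2, adjusted p = 0.000406 and 0.00475). Without the line both calls were lost (0.265 and 0.559 by edgeR, 0.209 and 0.599 by DESeq2), and the second also without the B87 Smad4-off TGFβ1 library (0.0704). *Mical1*, an enzyme that oxidizes actin downstream of plexins, rose by 2.16 ± 0.342 and 1.27 ± 0.330 in the same order (adjusted p = 0.00370 and 0.0488). Its calls too were lost without the line (0.561 and 0.802 by edgeR, 0.579 and 0.861 by DESeq2), and the second without any of the 4 Smad4-off libraries (0.107 to 0.257) or at 10 counts in every library (0.0506).

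*Gpc1*, a proteoglycan that binds Slits, rose by 1.5 ± 0.260 and 1.54 ± 0.259 (log2, adjusted p = 0.00542 and 0.0116). Without the line edgeR gave adjusted p = 0.146 and 0.268, and the second call was lost without the B73 TGFβ1 or the B87 SB505124 library of the Smad4-off cells (0.083 and 0.0522). *Flrt2*, a ligand of *Unc5* receptors, rose by 1.42 ± 0.225 (adjusted p = 0.00378) and *Itgb1*, the β1 integrin chain, by 1.31 ± 0.0818 (adjusted p = 0.000119), both in Smad4-on cells. *Flrt2* lost its call without the line (0.194 by edgeR, 0.0664 by DESeq2), and *Itgb1* kept its call in all 16 alternatives. For *Smad4*, 1 of the 54 was called under TGFβ1 (1.85%, against 3.12% of all tested genes), *Cxcl12*. *Cxcl12*, a chemokine that also guides axons, had 0 counts in all 4 B87 libraries, so its values (14.9, 48.7, 38.8 and 106 CPM) come from B73 only. Its call for *Smad4* under TGFβ1 was lost without the Smad4-off TGFβ1 library of B73 or B87 (adjusted p = 1.0 and 0.0547) and without the line (0.909 by edgeR, 0.966 by DESeq2). DESeq2 with the line did not call *Cxcl12* for *Smad4* under TGFβ1 either. Between the lines 7 of 54 were called (13.0%, against 8.37% of all tested genes), 3 higher and 4 lower in B87.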

How the data were processed

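Stranded poly(A) libraries were sequenced as single-end 75-bp reads. Per the submitters' processing notes and the study's methods, reads were checked with FastQC 0.11.5, trimmed with Trimmomatic 0.36, aligned to GRCm38 (mm10) with STAR 2.5.3a and counted per gene with featureCounts 1.6.3; strand and multimapping settings are not given in the sources used here. The authors deposited raw counts, 1 column per library.

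Groups came from the sample titles and labels. Members were matched by symbol, and the members and gene lists were chosen with earlier results of these data known. Counts were tested with edgeR 4.0.16 in R 4.3.3 (TMM, filterByExpr, quasi-likelihood F-test, 14301 genes), with the 4 groups and the line as terms and Benjamini-Hochberg adjustment over all tested genes; interactions were contrasts of the same kind of fit. The study used DESeq2, and its methods name no design terms. DESeq2 1.42.0 with and without the line was an alternative here, along with other scaling, filters and left-out libraries. Lines pair the libraries across groups because the same line went through all 4 conditions, and deviations of same-line libraries correlated at 0.642 to 0.774 over 6 pairs of groups. Standard errors were taken as |log2 fold change| over the root of the F statistic. Intervals of ratios are exact binomial intervals on summed counts. Values per line are differences of log2 CPM with a prior count of 2. On simulated data for *Smad4* under TGFβ1 (14301 genes, 200 changed 4-fold, log2 of 2) the fit recovered 98.5% with 7 false calls, and without the line 74.5% with 0 false calls. Those counts were drawn from a fit with the line, with equal changes in both lines. The gap in recovery therefore cannot show whether the line belongs in the model. Named genes were called members, the 3 highest per role, undetected members, the 5 called pathway genes with the largest change per comparison (the neuropilins were added after their values were seen), *Smad4* and TGFβ targets. Some items of the lists are not reported here. Nothing in the labels says that libraries of a line came from separate cultures. Promoter windows came from RefSeq, where 56 of 68 members had an entry; *Plxna4* had none. Exon length, strand overlap and shared 75-base stretches were checked in GENCODE M21: of the 25 called members, *Plxna2* shares 0.746% and *Sema6d* 0.0818% of its stretches with another gene, and the others 0%.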

Additional observations from a re-analysis of the deposited data

Results flagged for a closer look

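*Sema5a* was singled out because its response to *Smad4* differed between the lines by a test of the difference itself, the interaction of line and *Smad4*. The difference was 1.16 ± 0.141 on the log2 scale (edgeR adjusted p = 0.0347). Smad4-on libraries were higher in B87 under both treatments. In B73 the Smad4-on library was lower under TGFβ1 and nearly level under SB505124 (39.3 against 40.9 CPM). DESeq2 with the same terms gave 1.15 (adjusted p = 0.000616). The edgeR call was lost without either Smad4-on SB505124 library (adjusted p = 0.0543 and 0.0579) or the B73 Smad4-off TGFβ1 library (0.0654), and the lines are 2 tumors only.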

How the results depend on the processing

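Without the line, that is with no replicate block and the pairing ignored, edgeR called 0 members for *Smad4* under TGFβ1, 0 under SB505124, 9 for TGFβ1 in Smad4-on cells and 2 in Smad4-off cells, and DESeq2 called 1 and 1 for *Smad4*. With no filter on low counts the counts were 7 and 4 for *Smad4* under TGFβ1 and SB505124, 9 for TGFβ1 in Smad4-off cells, 5 for the interaction of *Smad4* and TGFβ1, 3 for line by TGFβ1 and 5 for line by *Smad4*. With at least 10 counts in every library they were 1 for *Smad4* under SB505124 and 3 for TGFβ1 in Smad4-off cells, against 0.65% and 4.38% of all genes so filtered. With no 2-fold rule they were 7 for *Smad4* under TGFβ1, 12 for TGFβ1 in Smad4-off cells and 13 between the lines. The shares of all tested genes by that rule were 6.8%, 13.2% and 18.6%. From only the 4 libraries compared, 0 were called for *Smad4* under SB505124 and 9 for TGFβ1 in Smad4-off cells. DESeq2 with the line called 2 for the interaction of *Smad4* and TGFβ1 and 1 for line by TGFβ1. Leaving out each library in turn gave 2 to 6 and 0 to 2 for *Smad4* under TGFβ1 and SB505124, 13 to 19 and 4 to 7 for TGFβ1 in Smad4-on and Smad4-off cells, and 0 to 2 for line by *Smad4*. The cause of these shifts was not tested. For the other alternatives of this section, the shares of all tested genes called are not given here. No called member changed sign under any alternative. *Cxcl12*, at 0 counts in B87, changed sign without a B73 library, its log2 fold change ranging from -0.18 to 1.45 for *Smad4* under TGFβ1, from -0.69 to 1.12 for TGFβ1 in Smad4-on cells and from -0.51 to 1.85 in Smad4-off cells. Detected members numbered 40 when 10 counts were asked of every library. A count of calls from a line alone has no test and was not made. Depth limits statements on *Plxna4*, *Plxnb3* and *Ephb2*, which had under 10 counts in several libraries.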
